A study of Mus musculus with 10 samples.

Results

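The 8 genes described here are Zic1, Zic2, Zic4, Zic5, Barhl1, Barhl2, Tfap2b and Mab21l1, developmental regulators known from the cerebellum and in large part from its granule cell lineage. They were selected by symbol with their measured ethanol differences in these arrays already known. Those differences are therefore given as a description, and no test of them is used as support. Every probe set annotated with exactly 1 of these symbols was taken, which gave 10 of the 21789 probe sets that carry a single symbol, or 8 of 19938 genes. Zic4 and Zic5 had 2 probe sets each and the other genes had 1, and all 10 are reported with no filter on low values.

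The arrays measured whole-brain RNA of male mice at postnatal day 70. Their mothers were C57BL/6J females. Those of the ethanol groups had 10% ethanol in water on offer before mating and then from gestational day 0 until their pups reached postnatal day 10, and those of the control groups had water without ethanol. Experiment 1 had 2 control and 2 ethanol arrays, each of pooled RNA from 3 mice, and experiment 2 had 3 control and 3 ethanol arrays, each from 2 mice. The labels name no transgene or mutation, exposure went through the mother, and mice were pooled in experiment 1 to limit litter effects, but pools that shared a litter are not named. The spread between arrays is thus the spread between pools.

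Granule cells are the small glutamatergic neurons of the cerebellar cortex and its most numerous cells. Their progenitors arise at the rhombic lip, where Atoh1 is switched on, and divide in the external granule layer under Sonic hedgehog from Purkinje cells before they move inward and mature. Zic proteins are zinc finger transcription factors, and Zic1 and Zic2 are expressed in progenitors and in mature granule cells. Barhl1 and Barhl2 are BarH-like homeodomain proteins, and Barhl1 lies downstream of Atoh1. Tfap2b encodes AP-2 beta, which in the cerebellum is best known from GABAergic interneurons rather than granule cells. Mab21l1 is a mab-21 family gene needed for eye development and expressed in granule cells and their progenitors. None of the genes is restricted to the cerebellum: Zic genes are also expressed in the olfactory bulb, septum, medial habenula and meninges, and Barhl2 in the diencephalon.

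Upstream sequence was read for 6 of the 8 genes (7 windows, since Barhl1 had 2 starts) from RefSeq, build GRCm38.p6, as the 250 bases before the annotated start, written 5′ to 3′ on the gene's strand. The windows of Zic1 and Tfap2b are shown because these were the genes whose ethanol arrays all lay below the controls in experiment 2. A window of Barhl1 is shown because both Barhl1 windows, and no other member window, held the E-box CAGCTG. Other forms of the E-box were not searched for and are not marked. Capitals mark exact matches to CAGCTG, an E-box of the kind basic helix-loop-helix factors such as Atoh1 bind, to GCCNNNGGC, the palindrome bound by AP-2 factors, and to TAATTG or its reverse complement CAATTA, a homeodomain core. The first 2 motifs read the same on both strands, and no match overlapped a match of another motif.
Zic1, chr9:91365769-91366018, minus strand: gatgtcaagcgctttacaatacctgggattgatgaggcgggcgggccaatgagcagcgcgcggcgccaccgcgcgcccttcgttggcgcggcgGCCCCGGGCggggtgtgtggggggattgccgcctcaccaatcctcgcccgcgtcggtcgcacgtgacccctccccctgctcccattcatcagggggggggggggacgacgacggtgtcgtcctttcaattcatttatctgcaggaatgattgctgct
Tfap2b, chr1:19211804-19212053, plus strand: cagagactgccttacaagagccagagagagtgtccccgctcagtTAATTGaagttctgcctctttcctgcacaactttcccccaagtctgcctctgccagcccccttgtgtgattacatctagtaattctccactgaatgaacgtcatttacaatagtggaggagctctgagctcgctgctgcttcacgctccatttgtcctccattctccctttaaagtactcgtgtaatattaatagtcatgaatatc
Barhl1, chr2:28916669-28916918, minus strand: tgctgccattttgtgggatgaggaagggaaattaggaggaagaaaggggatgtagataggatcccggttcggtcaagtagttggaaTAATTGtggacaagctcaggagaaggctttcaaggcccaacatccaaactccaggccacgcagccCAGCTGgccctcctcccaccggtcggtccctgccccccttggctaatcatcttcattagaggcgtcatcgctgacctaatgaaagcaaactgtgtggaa

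The Zic1 window held 1 AP-2 palindrome, 66% G and C and 27 CpG dinucleotides. The Tfap2b window held 1 homeodomain core, 46.4% G and C and 5 CpG. The median over 32851 windows of the same length was 52.4% G and C and 6 CpG. CAGCTG occurred in 13% of all windows and in 2 of the 7 member windows, both of Barhl1. GCCNNNGGC occurred in 13.7% of all windows and in 2 member windows, those of Zic1 and of the other Barhl1 start. TAATTG occurred in 7.17% of all windows and in 3 member windows, those of Tfap2b and of both Barhl1 starts. The windows of Zic4, Zic5 and Barhl2 held none of the 3 motifs. In the same annotation Zic1 and Zic4 are neighbours on chromosome 9 whose gene records overlap, with 0 genes between them, and Zic2 and Zic5 lie on chromosome 14 with 1 long non-coding RNA gene between them. Barhl1 is on chromosome 2, Barhl2 on chromosome 5, Tfap2b on chromosome 1 and Mab21l1 on chromosome 3.

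Values below are log2 expression levels per probe set, and a difference is ethanol minus control in log2 units. The deposited table had been adjusted so that the mean of each probe set was the same in both experiments, to within 5.83e-05, so levels are compared only within an experiment. Differences carry the standard error of limma's linear model, over 5 ethanol and 5 control arrays where both experiments are used. The number of arrays limits the precision. Across all 21789 gene probe sets, 0 (0.0%) had an adjusted p under 0.05 for ethanol against control over both experiments, and the smallest was 0.215 (limma with Benjamini-Hochberg adjustment). An unadjusted p under 0.05 was reached by 2703 probe sets, and a linear model without moderation gave 0 adjusted calls and 2422 probe sets at an unadjusted p under 0.05. Because this is RNA of the whole brain, fewer cells of a type and less RNA per cell cannot be told apart.

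Zic1 and Zic2, the members with the brightest probe sets, were lower in ethanol brains on average in both experiments. Zic1 measured 10.69 and 10.65 on the control arrays of experiment 1 against 10.41 and 10.23 on its ethanol arrays. For experiment 2 the Zic1 controls were 10.51, 10.52 and 10.62, and the ethanol arrays were 10.50, 10.50 and 10.33. Every Zic1 ethanol array lay below every control of its experiment, by a wide margin in experiment 1 and in experiment 2 by little for all but ethanol array 3. The Zic1 difference was -0.20 ± 0.06 (SE) over both experiments, or 1.15-fold lower, with -0.35 ± 0.08 in experiment 1 and -0.11 ± 0.07 in experiment 2. Without ethanol array 3 the experiment 2 difference of Zic1 was -0.05.

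Zic2 measured 10.60 and 10.72 in the controls of experiment 1 and 10.48 and 10.24 in the ethanol pools. The Zic2 values of experiment 2 were 10.66, 10.49 and 10.64 in controls and 10.55, 10.43 and 10.29 in ethanol pools. The groups were apart in experiment 1 and overlapped in experiment 2, where ethanol array 1 was above control array 2. The Zic2 difference was -0.22 ± 0.07 over both experiments (1.17-fold lower), -0.30 ± 0.10 in experiment 1 and -0.17 ± 0.08 in experiment 2. It was -0.18 in experiment 1 without ethanol array 2, and -0.11 in experiment 2 without ethanol array 3.

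Zic5, the neighbour of Zic2, gave different readings on its 2 probe sets, which the annotation lists under the same transcript. Probe set numbers on this array mostly run along chromosomes. The number 10422504 lies among probe sets of genes on chromosome 14 (24 of its 40 neighbours), where Zic5 is, but 10376241 lies among those of chromosome 11 (39 of 40, and 0 on chromosome 14). The files do not give probe positions, so whether 10376241 measures Zic5 is unknown. On probe set 10376241 Zic5 measured 9.22 and 9.27 in the controls of experiment 1 and 8.90 and 8.90 in ethanol pools, and in experiment 2 it measured 9.20, 9.10 and 9.02 in controls and 9.10, 9.18 and 8.84 in ethanol pools. The groups were apart in experiment 1, whereas in experiment 2 only ethanol array 3 lay below the controls. The difference on this probe set was -0.17 ± 0.07 over both experiments, -0.34 ± 0.10 in experiment 1 and -0.06 ± 0.08 in experiment 2. The last value changed sign, to 0.04, without ethanol array 3, and was -0.13 without ethanol array 2. On probe set 10422504 Zic5 measured 7.37 and 7.31 in controls and 7.27 and 7.30 in ethanol pools of experiment 1, and 7.23, 7.27 and 7.23 in controls and 7.45, 7.27 and 7.44 in ethanol pools of experiment 2. Here the ethanol arrays were all below the controls in experiment 1 and all above them in experiment 2. Its difference was 0.06 ± 0.05 over both experiments, -0.06 ± 0.07 in experiment 1 and 0.14 ± 0.06 in experiment 2, and the pooled value was 0.03 without ethanol array 1 of experiment 2 and 0.04 without its ethanol array 3. The experiment 1 value was -0.03 without control array 1 and -0.09 without control array 2. The direction given for Zic5 thus depends on the probe set, and the lower reading is the one with the doubtful place.

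Zic4, the neighbour of Zic1, also had 2 probe sets of opposite sign, both dim. The number 10587782 lies among probe sets of chromosome 9 (38 of 40 neighbours), where Zic4 is, and 10554140 among those of chromosome 7 (39 of 40, and 0 on chromosome 9), so the same doubt holds for the latter. Probe set 10587782 measured 6.24 and 6.12 in controls and 6.22 and 5.98 in ethanol pools of experiment 1. In experiment 2 the controls of that probe set were 6.19, 6.12 and 6.24 and the ethanol pools 6.04, 6.15 and 6.10. The groups overlapped in both experiments, and the difference was -0.08 ± 0.05 over both, -0.08 ± 0.09 in experiment 1 and -0.09 ± 0.07 in experiment 2. Single arrays moved the experiment 1 value between -0.20 and 0.04. Leaving out ethanol array 2 gave the positive end and brought the pooled value to -0.05. Probe set 10554140 measured 5.49 and 5.51 in controls and 5.73 and 5.62 in ethanol pools of experiment 1, and 5.57, 5.42 and 5.66 in controls and 5.65, 5.52 and 5.67 in ethanol pools of experiment 2. Its ethanol arrays were above the controls in experiment 1 and mixed with them in experiment 2. The difference was 0.11 ± 0.06 over both experiments, 0.18 ± 0.09 in experiment 1 and 0.06 ± 0.07 in experiment 2, the last being -0.00 without control array 2 and 0.12 without control array 3.

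**Figure D1:**
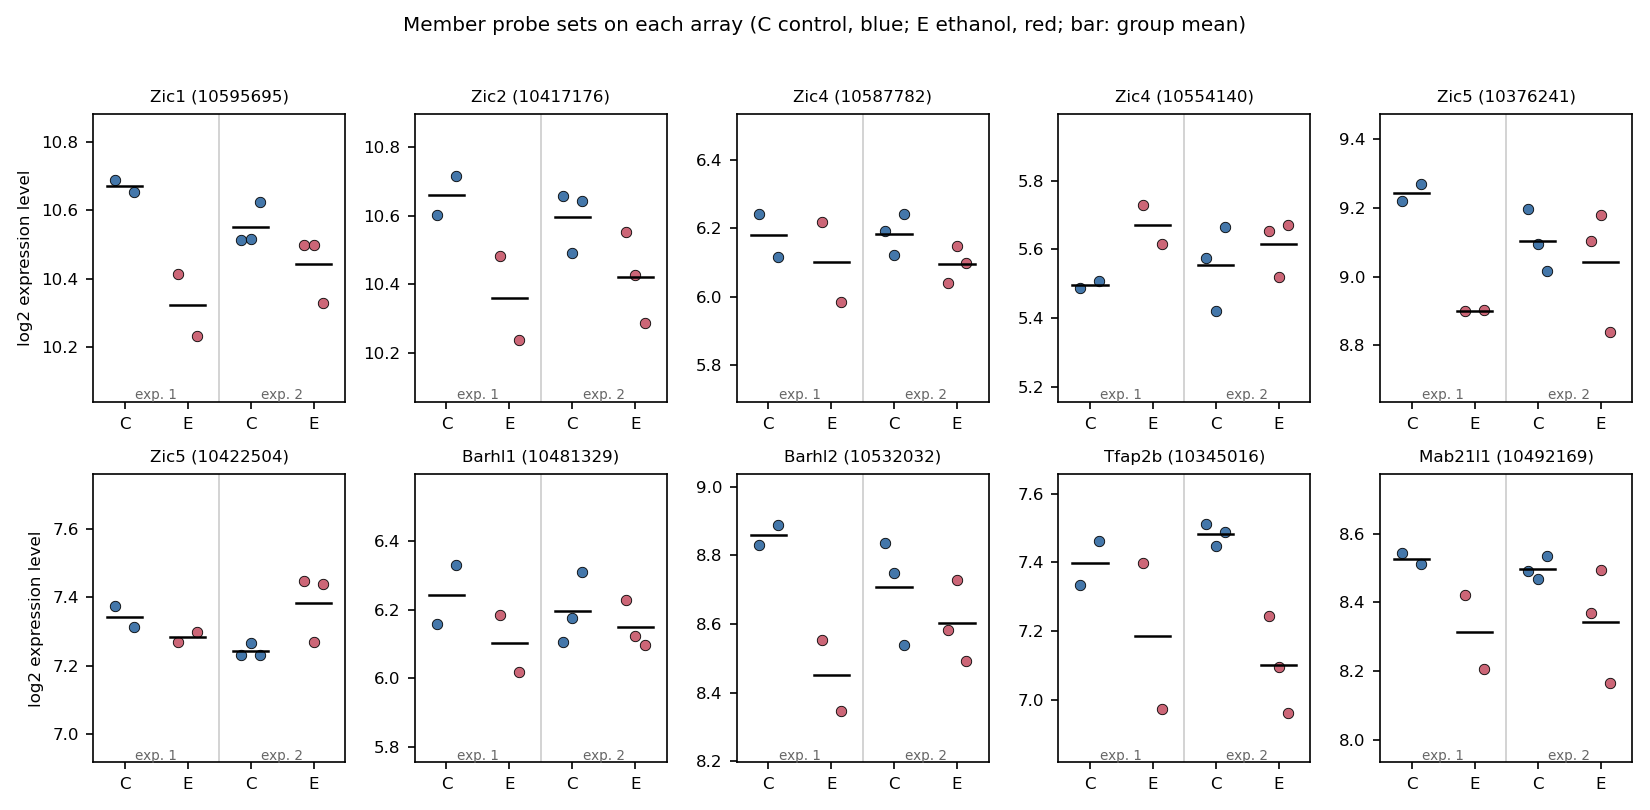
Log2 expression level of the 10 probe sets of the 8 genes on each of the 10 arrays (y axis, log2 units, every panel spanning the same height), grouped on the x axis by experiment and by control (blue) or ethanol (red); points are arrays and bars are group means. Zic1 and Tfap2b are the probe sets whose 3 ethanol arrays all lie below the 3 controls of experiment 2, and the Zic4 and Zic5 probe sets do not share a direction within a gene.

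Barhl2 and its homologue Barhl1 were both lower on average in ethanol brains. Barhl2 measured 8.83 and 8.89 in the controls of experiment 1 against 8.55 and 8.35 in ethanol pools. In experiment 2 Barhl2 measured 8.84, 8.75 and 8.54 in controls and 8.58, 8.73 and 8.49 in ethanol pools. The groups were apart in experiment 1 and overlapped in experiment 2, where control array 3 lay below ethanol arrays 1 and 2. The Barhl2 difference was -0.23 ± 0.08 over both experiments (1.17-fold lower), -0.41 ± 0.11 in experiment 1, the largest of any member there, and -0.11 ± 0.09 in experiment 2. Leaving out single arrays of experiment 2 moved that last value between -0.04 and -0.19.

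Barhl1, on a dim probe set, measured 6.16 and 6.33 in controls and 6.19 and 6.02 in ethanol pools of experiment 1. Its experiment 2 values were 6.10, 6.17 and 6.31 in controls and 6.23, 6.12 and 6.10 in ethanol pools. Control and ethanol arrays of Barhl1 overlapped in both experiments. The difference was -0.08 ± 0.06 over both experiments, -0.14 ± 0.09 in experiment 1 and -0.05 ± 0.07 in experiment 2, and the experiment 2 value was 0.01 without control array 3. In experiment 1 leaving out any 1 array moved the Barhl1 difference by over 1.5 times, to between -0.05 and -0.23. The pooled value was -0.05 without ethanol array 2 or without control array 2 of experiment 1.

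Tfap2b had the largest pooled difference of the 8 genes, and its larger value was in experiment 2. Tfap2b measured 7.33 and 7.46 in controls and 7.40 and 6.97 in ethanol pools of experiment 1. Its values in experiment 2 were 7.51, 7.45 and 7.49 in controls and 7.24, 7.10 and 6.96 in ethanol pools. Ethanol arrays lay clearly below the tight controls of experiment 2, and in experiment 1 ethanol array 1 lay between the controls while ethanol array 2 lay far below them. The Tfap2b difference was -0.31 ± 0.08 over both experiments (1.24-fold lower), -0.21 ± 0.12 in experiment 1 and -0.38 ± 0.10 in experiment 2, the last being 1.30-fold lower. Without ethanol array 2 the experiment 1 difference of Tfap2b was -0.00, and without ethanol array 1 it was -0.42.

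Mab21l1 measured 8.54 and 8.51 in controls and 8.42 and 8.21 in ethanol pools of experiment 1. For experiment 2 the Mab21l1 controls were 8.49, 8.47 and 8.53 and the ethanol pools 8.37, 8.49 and 8.16. The controls were close together, the ethanol arrays were below them in experiment 1, and ethanol array 2 reached the controls in experiment 2. The difference was -0.18 ± 0.06 over both experiments (1.13-fold lower), -0.21 ± 0.10 in experiment 1 and -0.16 ± 0.08 in experiment 2. It was -0.11 in experiment 1 without ethanol array 2 and -0.07 in experiment 2 without ethanol array 3.

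Over both experiments 8 of the 10 probe sets had a negative difference, with 9 negative in experiment 1 and 8 in experiment 2. With the brightest probe set of each gene, all 8 genes were lower, with a median of -0.19, while the median over all 10 probe sets was -0.18. The median of the 10 was -0.21 in experiment 1 and -0.10 in experiment 2. Keeping only the 8 probe sets whose number lies among genes of their own chromosome, a choice made after the values were seen, 7 of 8 genes were lower over both experiments, with a median of -0.19. Zic5 was then the gene that was not lower. Over all gene probe sets 54.4% were lower and the median was -0.01. An unadjusted p under 0.05 was reached by 6 member probe sets with a lower value, where 7.68% of all gene probe sets were called lower, and by 0 with a higher value, where 4.72% were called higher. In experiment 1 the ethanol arrays lay below all controls for 6 member probe sets (19.2% of all gene probe sets), in experiment 2 for 2 (11.6%), and in both experiments for Zic1 (2.82%). The members were chosen with these contrasts known, so nothing is read from those shares.

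**Figure D2:**
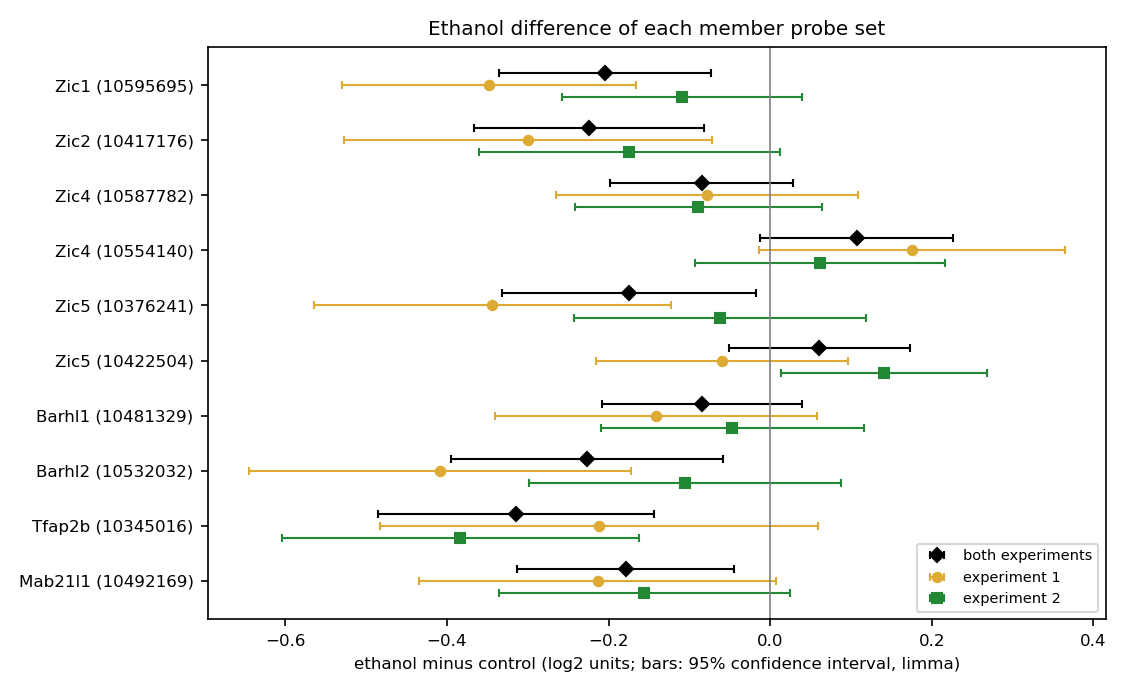
Ethanol minus control difference (x axis, log2 units) of each of the 10 member probe sets (y axis) over both experiments (black), in experiment 1 (yellow) and in experiment 2 (green), with 95% confidence intervals from limma that are not adjusted for the number of probe sets. Tfap2b is the most negative over both experiments at -0.31, and 1 probe set each of Zic4 and Zic5 lies above 0 at 0.11 and 0.06.

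The size of the ethanol difference was then compared between the experiments, as experiment 2 minus experiment 1 in the fit with a mean for each group. A positive value means a less negative difference in experiment 2. It was 0.24 ± 0.11 for Zic1, 0.28 ± 0.13 for Zic5 on probe set 10376241, 0.30 ± 0.14 for Barhl2 and 0.20 ± 0.09 for Zic5 on probe set 10422504. Zic2 gave 0.13 ± 0.13, with a 95% confidence interval from -0.17 to 0.42. For Tfap2b the value had the other sign, -0.17 ± 0.16, with an interval from -0.52 to 0.18. The remaining probe sets gave 0.06 for Mab21l1, 0.09 for Barhl1, and -0.01 and -0.11 for the Zic4 probe sets. Several of these values rested on 1 ethanol array of experiment 1. Without ethanol array 1 of that experiment the Tfap2b value turned to 0.04, and without ethanol array 2 it was -0.38. Without ethanol array 2 the value was 0.15 for Zic1, 0.20 for Barhl2, 0.0036 for Zic2, 0.01 for Barhl1 and -0.05 for Mab21l1. Leaving out single arrays moved Zic4 probe set 10587782 between -0.13 and 0.11 and Zic4 probe set 10554140 between -0.18 and -0.06. For both Zic5 probe sets the value kept its sign and stayed within 1.5 times under each array left out. Of the 10 probe sets 1, that of Zic1, had an unadjusted p under 0.05, against 6.57% of all gene probe sets. Adjusted p-values of the members ran from 0.759 to 0.993 (limma with Benjamini-Hochberg adjustment), so no difference between the experiments passed the threshold, and the intervals leave room for sizeable ones.

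The direction of the difference moved with brightness over the whole table. Among the dimmest quartile of gene probe sets 20.7% were lower in ethanol brains, with a median difference of 0.04, and in the next quartile 42.1% were lower, with a median of 0.02. In the third quartile 77.3% were lower (median -0.05) and in the brightest 77.5% (median -0.04). The lower quartile of an array's values was 5.78 to 5.83 on control arrays and 5.85 to 5.87 on ethanol arrays. Zic1 and Zic2 belong to the brightest quartile, and Barhl2, Mab21l1 and the brighter Zic5 probe set to the quartile below it, where lower values prevailed. Tfap2b, Barhl1, the dimmer Zic5 probe set and Zic4 probe set 10587782 belong to the second quartile, and the Zic4 probe set with the positive difference to the dimmest. The part of this trend in the members' values was not tested beyond rescaling. After quantile normalization of the arrays the pooled differences were -0.17 for Zic1, -0.19 for Zic2, -0.20 for Barhl2, -0.33 for Tfap2b and -0.15 for Mab21l1, and 8 of 10 probe sets were again lower. The brighter Zic5 probe set was at -0.14 and the dimmer at 0.05. The dimmest probe sets moved most, by over 1.5 times: Barhl1 went to -0.13, Zic4 probe set 10587782 to -0.13 and Zic4 probe set 10554140 to 0.06.

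**Figure D3:**
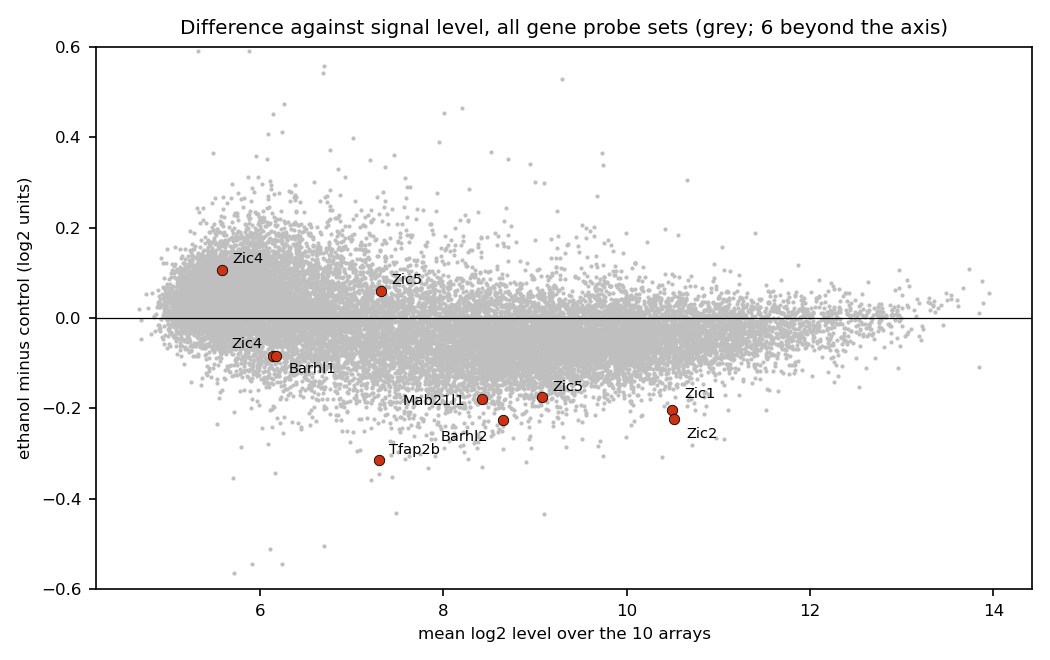
Ethanol minus control difference over both experiments (y axis, log2 units) against the mean log2 level over the 10 arrays (x axis) for all 21789 gene probe sets (grey, 6 beyond the axis) and the member probe sets (red, labelled). Grey points lie mostly above 0 at low levels and below 0 at higher levels, and Tfap2b at -0.31 lies below most points of its level.

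The lower values were unevenly spread over the ethanol arrays. The median deviation of the 10 member probe sets from the control mean of their experiment was -0.33 on ethanol array 2 of experiment 1 and -0.22 on ethanol array 3 of experiment 2. It was -0.09 on ethanol array 1 of experiment 1, and -0.05 and -0.03 on ethanol arrays 1 and 2 of experiment 2. The control arrays lay between -0.03 and 0.04, but these are deviations from their own mean, so the range understates the spread between pools. In experiment 1 the 2 controls mirror each other by construction. With the 8 probe sets of matching place the ethanol medians were -0.09 and -0.37 in experiment 1 and -0.09, -0.04 and -0.22 in experiment 2. In a comparison without those 2 low ethanol arrays, chosen after their values were seen, the pooled difference was -0.13 for Zic1, -0.13 for Zic2, -0.14 for Barhl2, -0.20 for Tfap2b and -0.08 for Mab21l1. On the brighter Zic5 probe set it was -0.10, for Barhl1 -0.03 and for the Zic4 probe sets -0.04 and 0.10. The count of lower probe sets stayed at 8 of 10 over both experiments, with the differences of Zic1, Zic2, Zic5, Barhl1, Barhl2, Tfap2b and Mab21l1 all smaller. The count of member probe sets at an unadjusted p under 0.05 went from 6 to 3 in that comparison, and it was 4 with array weights.

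Genes expressed in mature granule cells were lowest on the same arrays. Their median deviation was -0.47 on ethanol array 2 of experiment 1 and -0.25 on ethanol array 3 of experiment 2, against -0.10, 0.01 and 0.04 on the other ethanol arrays. Over both experiments 11 of 12 were lower, with a median difference of -0.15. Beside them, 77.3% of all gene probe sets in the third level quartile and 77.5% in the brightest were lower. The 3 brightest were Slc17a7, the vesicular glutamate transporter also found in the forebrain, at 0.04 ± 0.04, Chn2, the Rac regulator beta-chimaerin, at -0.10 ± 0.05, and Calb2, which encodes calretinin, at -0.12 ± 0.06. At an unadjusted p under 0.05 there were 2 of 12 lower, beside 7.68% of all gene probe sets, named here after their values were seen: Gabra6, the granule cell GABA-A receptor subunit, at -0.28 ± 0.10, and Cbln1, the synapse organiser released by granule cells, at -0.20 ± 0.09. No gene of this or of the other 14 lists passed limma's test after Benjamini-Hochberg adjustment. All 15 lists were chosen with earlier results of these data known, so their counts and medians are a description and are not used as support.

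Of the granule lineage factors outside the members 11 of 13 measured were lower, with a median of -0.07, beside 54.4% of all gene probe sets. Their levels ran from the dimmest quartile, where 20.7% of gene probe sets were lower, to the brightest, where 77.5% were. Of the 13, 3 were lower at an unadjusted p under 0.05, beside 7.68% of all. The brightest were Etv1, an ETS factor of maturing granule cells, at -0.11 ± 0.05, and the nuclear factor I genes Nfib at -0.07 ± 0.04 and Nfix at -0.05 ± 0.04. Of the 3 brightest, Etv1 was under that p and Nfib and Nfix were not. Also under it, and named after their values were seen, were Pax6, the paired box factor of the rhombic lip, at -0.22 ± 0.08 and Mab21l2, the homologue of Mab21l1, at -0.19 ± 0.09. Sonic hedgehog pathway genes were lower in 8 of 11, with a median of -0.09 and 2 under that p. Among them the receptor Ptch1 was at -0.09 ± 0.06, the co-receptor Boc at -0.11 ± 0.07 and the signal transducer Smo at -0.18 ± 0.06. The list set up for cerebellar inhibitory interneuron factors, the lineage in which Tfap2b is best known, was lower in 3 of 5 with a median of -0.03. Its median level of 5.60 lay in the dimmest quartile, so it gives little reading of that lineage. Tfap2a, the homologue of Tfap2b, was at -0.07 ± 0.05 on a dim probe set and Pax2 at -0.04 ± 0.05. Lbx1, which is not specific to that lineage, was at -0.03 ± 0.04.

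Other cerebellar cell types and other sources of Zic transcripts were set beside the members, by lists also chosen with earlier results of these data known. Of all gene probe sets 7.68% were lower at an unadjusted p under 0.05 (limma). A lower value at any p was seen in 54.4% of all, in 77.3% of the third level quartile and in 77.5% of the brightest. Purkinje cell genes were lower in 9 of 10 with a median of -0.11, and 4 of 10 were lower at an unadjusted p under 0.05. They include Ppp1r17, a phosphatase inhibitor gene of Purkinje cells named after its value was seen, at -0.43 ± 0.12, a larger difference than that of any member. By array, the Purkinje list's median deviation was -0.17 on ethanol array 2 of experiment 1 and -0.28 on ethanol array 3 of experiment 2. The brightest of them were Pcp4 at 0.02 ± 0.04, the calcium buffer gene Calb1 at -0.10 ± 0.04 and Car8 at -0.20 ± 0.08. Bergmann glia and cerebellar astrocyte genes were lower in 5 of 5 (median -0.11), 3 of them at an unadjusted p under 0.05, with Aqp4, the astrocyte water channel, at -0.11 ± 0.04, Slc1a3 at -0.03 ± 0.04 and Gdf10 at -0.16 ± 0.09. Meningeal fibroblast genes, from a tissue that also expresses Zic genes, were lower in 12 of 12 with a median of -0.09, 4 of them at that p (7 of 12 lower in experiment 1 and 12 of 12 in experiment 2). Among them the collagen-binding proteoglycan gene Dcn was at -0.19 ± 0.05, Ogn at -0.28 ± 0.07 and Igf2 at -0.07 ± 0.06. Their mean log2 level ran from 7.55 to 7.57 in controls and 7.48 to 7.55 in ethanol pools of experiment 1, and from 7.59 to 7.67 against 7.41 to 7.47 in experiment 2. The meningeal list was lower by similar amounts on the 3 ethanol arrays of experiment 2, at -0.15, -0.14 and -0.19.

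For the lists that follow, the share lower over all gene probe sets was 54.4%, with 51.8% in experiment 1 and 54.9% in experiment 2. By level it was 42.1% in the second quartile and 77.3% in the third. The median levels of the habenula (7.66), septal and thalamic (9.24) and forebrain (9.16) lists lay in the third quartile. Those of the olfactory bulb, mammillary and tectal, and hindbrain and spinal lists lay in the second. Olfactory bulb genes were lower in 6 of 8 (median -0.06), with 8 of 8 in experiment 1 and 3 of 8 in experiment 2. The olfactory bulb list did not follow the members' arrays, with -0.38 on ethanol array 2 of experiment 1 but 0.16 on ethanol array 3 of experiment 2. In that list the dopamine synthesis enzyme Th was at -0.24 ± 0.10, Pbx3 at -0.14 ± 0.08 and Dcx at 0.00 ± 0.08. Habenula genes were lower in 5 of 6 (median -0.06; 3 of 6 in experiment 1 and 5 of 6 in experiment 2), with Tac2 at -0.13 ± 0.09, Chrna3 at -0.08 ± 0.07 and Lrrc55 at -0.08 ± 0.04. Septal and thalamic genes were lower in 5 of 6 (median -0.03; 3 of 6 and 5 of 6), with Tcf7l2 at -0.05 ± 0.05, Prkcd at -0.05 ± 0.06 and Rorb at -0.04 ± 0.05. Mammillary and tectal factors were lower in 2 of 5 (median 0.01), with Pax7 at 0.10 ± 0.08, Lmx1b at 0.01 ± 0.06 and Sim1 at -0.00 ± 0.04. Forebrain genes were lower in 0 of 6 in experiment 1 (median 0.10) and in 5 of 6 in experiment 2 (median -0.08), which pools to 3 of 6 (median -0.00). Over both experiments they included Neurod6 at -0.07 ± 0.07, Tbr1 at -0.02 ± 0.06 and Ppp1r1b at -0.00 ± 0.06. Hindbrain and spinal genes were lower in 5 of 6 (median -0.05, with 2 of 6 and 5 of 6 by experiment). Among them the glycine transporter gene Slc6a5 was at -0.28 ± 0.13, Hoxb3 at -0.00 ± 0.05 and Egr2 at 0.62 ± 0.24. Egr2 is also an activity-induced gene, so its value is not read as one of the hindbrain.

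Genes of 2 structures at the edge of a whole-brain dissection were set beside the members as well. The shares over all gene probe sets were again 54.4% lower, and 7.68% lower at an unadjusted p under 0.05 (limma). In the third level quartile 77.3% were lower. Choroid plexus genes were lower in 7 of 7 with a median of -0.11, 3 of them at an unadjusted p under 0.05. In experiment 1 alone 4 of 7 were lower with a median of -0.03, and in experiment 2 7 of 7 with a median of -0.27. Over both experiments the brightest of them were Ttr at -0.11 ± 0.06, the potassium channel gene Kcnj13 at -0.31 ± 0.06 and Otx2 at -0.29 ± 0.06. Pituitary genes were lower in 0 of 7 with a median of 0.41, with Gh, growth hormone, at 2.96 ± 1.03, Prl, prolactin, at 2.72 ± 0.87 and Cga at 1.89 ± 0.67. The mean log2 level of the pituitary list ran from 5.63 to 5.77 in controls and 7.23 to 8.10 in ethanol pools of experiment 1, and from 6.14 to 6.57 against 6.23 to 8.68 in experiment 2. Its median deviation on the ethanol arrays was 0.74 and 0.24 in experiment 1 and -0.06, 1.29 and -0.02 in experiment 2. Gh, its brightest gene, deviated by 5.69 and 4.39 in experiment 1 and by -0.30, 5.43 and -0.42 in experiment 2. The part of the pituitary, choroid plexus, meningeal and Purkinje cell values in the members' differences was not tested.

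**Figure D4:**
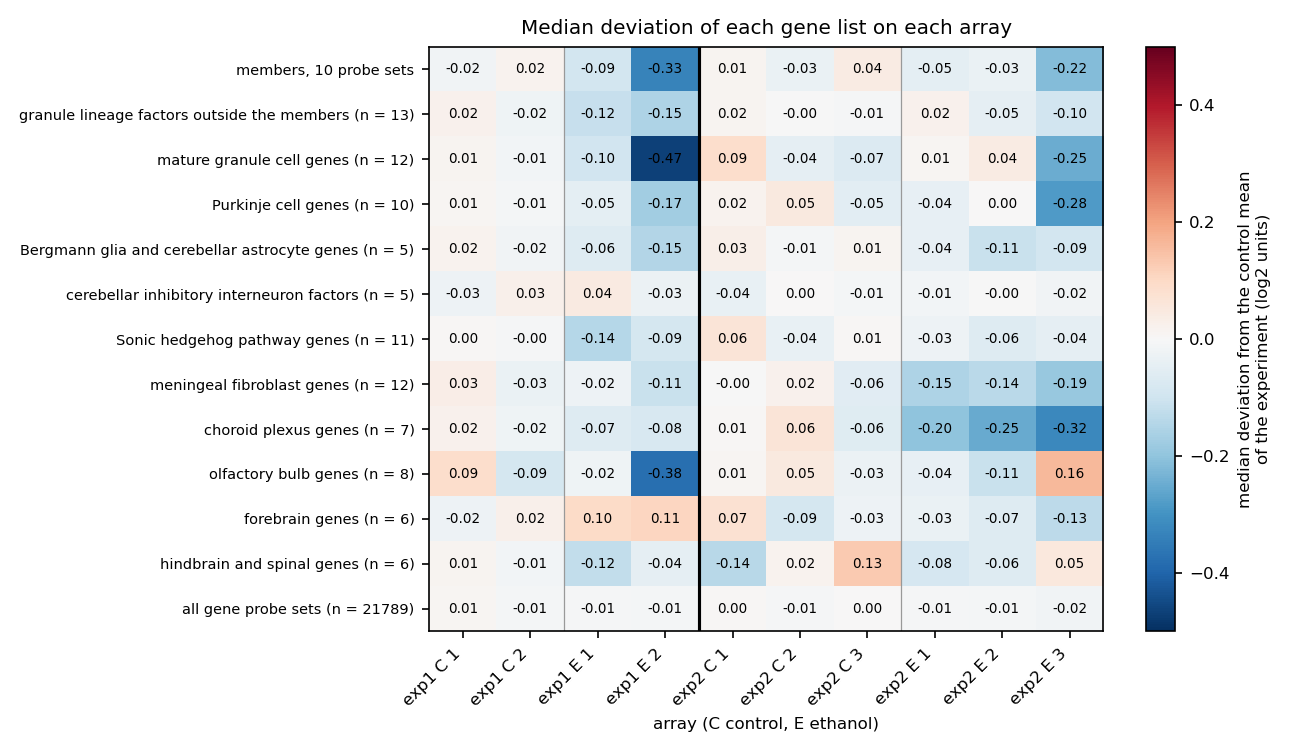
Median deviation of each gene list (rows, number of genes in brackets) from the control mean of its experiment on each array (columns), in log2 units, printed in each cell and coloured from blue (lower) to red (higher). The members, the mature granule cell genes and the Purkinje cell genes are lowest on ethanol array 2 of experiment 1 and ethanol array 3 of experiment 2, at -0.33 and -0.22, -0.47 and -0.25, and -0.17 and -0.28, and so are the other granule lineage factors at -0.15 and -0.10, the meningeal list at -0.11 and -0.19 and the choroid plexus list at -0.08 and -0.32.

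The profile of Zic1 over the 10 arrays, taken as values minus the experiment mean, was compared with that of 10893 probe sets above the median level. The 8 genes most like it by Pearson's r were Syt2 (0.97), a synaptotagmin of synaptic vesicles, Adamts10 (0.97), Unc13c (0.96), a vesicle priming factor of granule cells, Slc7a10 (0.96), an amino acid transporter of astrocytes, Slc12a2 (0.96), the chloride importer NKCC1, Pign (0.95), Patj (0.95) and Ist1 (0.94). The median r over the 10893 was 0.25 and 5% of them exceeded 0.76, and arrays of a treatment, pool and total brightness are shared by all genes. Without the 2 arrays farthest from the median of Zic1 the 8 correlations ran from 0.87 to 0.94. Among the members, Zic2 and Mab21l1 came closest, each at 0.89 and at ranks 76 and 77. The brighter Zic5 probe set gave 0.79, Barhl2 0.78, Barhl1 0.73 and Tfap2b 0.72. These values include the ethanol difference on which the members were selected. Taken around the mean of each treatment group instead, r with Zic1 was 0.91 for Mab21l1, 0.76 for Zic2, 0.76 for Tfap2b and 0.65 for Barhl1, but 0.40 for the brighter Zic5 probe set and 0.27 for Barhl2. On that basis the dimmest Zic4 probe set gave 0.25, Zic4 probe set 10587782 gave 0.63 and the dimmer Zic5 probe set gave -0.38. No median over the 10893 probe sets was computed around the group means. Genes of the granule and Purkinje cell lists ran from -0.75 for Insm1 to 0.86 for Meis1 on that basis. Zic4 probe set 10587782 gave 0.64 over all 10 arrays around the experiment mean, which was 0.19 without those 2 arrays, while the dimmer Zic5 probe set gave -0.14 and the dimmest Zic4 probe set -0.47. Barhl2 resembled the brighter Zic5 probe set (0.90), the one with the doubtful place, more than it resembled Barhl1 (0.37), and Tfap2b was closest to Zic2 (0.88). The dimmer Zic5 probe set, whose place matches, gave -0.18 with Barhl2 and -0.26 with Zic2. On either probe set, Zic4 and Zic5 were each less like their neighbour than Mab21l1 was like Zic1.

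**Figure D5:**
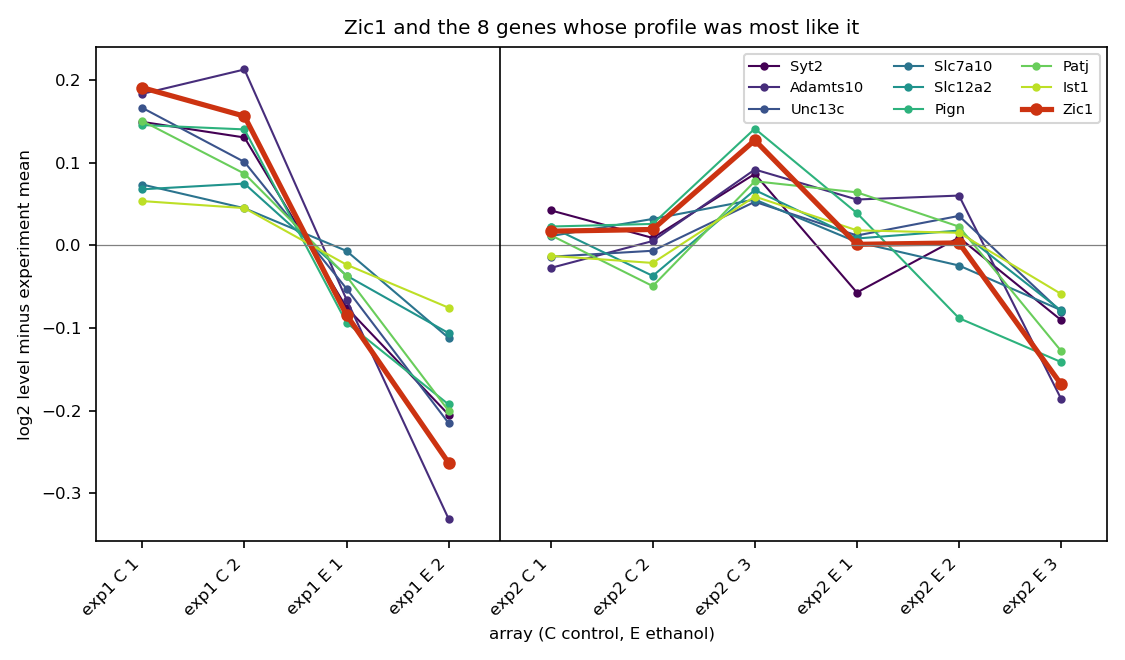
Log2 level minus the experiment mean (y axis) of Zic1 (thick red line) and of the 8 genes most like it on each of the 10 arrays (x axis, C control and E ethanol, experiment 1 left and experiment 2 right of the vertical line); the lines only join arrays for reading. All 9 profiles are lowest on ethanol array 2 in experiment 1 and on ethanol array 3 in experiment 2.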

How the data were processed

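Affymetrix whole-transcript arrays were hybridised from 200 ng of total RNA per array, per the labels' protocols. The values deposited by the authors are log2 levels of 35556 probe sets on 10 arrays. The submitters' processing notes name Partek 6.6; a background correction or normalization was not given in the sources used here. Platform annotation listed 23410 probe sets, of which 1621 carried several symbols and were left out. Symbols not found there (11 of 130 in the lists) were not analysed here.

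Fits used limma 3.58.1 in R 4.3.3 with lmFit, eBayes and Benjamini-Hochberg adjustment at 0.05. The pooled fit had experiment and treatment terms (7 residual degrees of freedom, prior 5.57), and a fit with a mean for each group gave within-experiment values (6, prior 5.45). The fits were tested on simulated data. The members and the 15 lists were chosen with earlier results of these data known. From each list the 3 genes of highest mean level were named, whatever their difference, with the brightest probe set of a gene, and the 8 genes most like Zic1. Alternatives were quantile normalization, median centring, a filter at the 25th percentile, all probe sets, an intensity trend, array weights, the replicate block and each array left out.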

Additional observations from a re-analysis of the deposited data

Results flagged for a closer look

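The ethanol arrays lay on opposite sides of the controls' mean in the 2 experiments for a few of the named probe sets. For Zic5 probe set 10422504 both ethanol arrays of experiment 1 were below that mean and all 3 of experiment 2 above it, a change of 0.2008 log2 units from experiment 1 to experiment 2. The opposite pattern, above in experiment 1 and below in experiment 2, was seen for Igf2 of the meningeal list (-0.2674), Prkcd of the thalamic list (-0.2347), and Tbr1 (-0.202) and Ppp1r1b (-0.1777) of the forebrain list. None of these differences between experiments had an adjusted p under 0.05 (limma with Benjamini-Hochberg adjustment), the lowest being 0.678 for Igf2.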

How the results depend on the processing

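Over both experiments 8 member probe sets were lower under each of 19 alternatives, of 9 with the filter on dim probe sets and otherwise of 10. All probe sets, the filter, the intensity trend, the replicate block and the linear model without moderation leave each difference unchanged. Their counts of lower probe sets were thus fixed in advance and say nothing about stability. Over the alternatives the count was 8 to 9 in experiment 1 and 7 to 9 in experiment 2. Without the 2 probe sets numbered among genes of another chromosome it was 7 of 8 over both experiments, 8 in experiment 1 and 7 in experiment 2. Adjusted calls over all gene probe sets were 0 in each of the 4 comparisons and stayed 0 except as follows. Over both experiments, leaving out 1 array gave 0 to 1 calls, with 1 without ethanol array 2 of experiment 1. In experiment 1, a fit on that experiment alone gave 1, and leaving out 1 array gave 0 to 235, with 235 without ethanol array 1 of experiment 1, where the lone ethanol array is assumed to vary like the other groups, and 1 without ethanol array 2 of experiment 2. In experiment 2, array weights gave 2, and leaving out 1 array gave 0 to 1, with 1 without control array 3. For the difference between experiments, leaving out 1 array gave 0 to 94, with 94 without ethanol array 1 of experiment 1, 3 without control array 3 of experiment 2 and 1 without ethanol array 2 of experiment 2. The cause was not tested. The replicate block gave 0 calls over both experiments. Same-numbered arrays did not deviate together, with correlations of -0.05 in experiment 1 and 0.0062, -0.15 and 0.23 in experiment 2, so the numbers were not taken to pair the arrays. Dim probe sets of Zic4 and Barhl1 limit what can be said of those genes.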
